A study of Mus musculus with 9 samples.

Results

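Assembled isoforms are transcripts that a program builds from the aligned reads and that carry no Ensembl transcript identifier, although the gene they lie in does. The isoforms described here were chosen by identifier: an assembled transcript identifier joined to an Ensembl mouse gene identifier. A further 172 were left out because their annotation text names a virus or an intracisternal particle, the product of an endogenous retrovirus. Of the 153363 transcripts in the study's matrix, 11298 remained, in 5760 genes. The share of a gene that such an isoform holds was read for genes with at least 5 FPKM (fragments per kilobase of transcript, scaled to the mapped fragments of the library) in every group, which left 8539 assembled isoforms in 4037 of 7545 genes, or 53.5% of the genes at that level. The other 2759 isoforms lay in genes under the limit and were not followed. Just inside it were isoforms of Gm13822, Urgcp and Prpf40b, whose genes had lowest group values of 5.0033, 5.0067 and 5.0098 FPKM, and just outside those of Slc26a2, Arhgef10 and Ceacam19 at 4.9966, 4.9901 and 4.99 FPKM.

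The RNA came from RAW264.7 cells, a mouse macrophage line derived from an Abelson leukaemia virus tumour, in 9 samples, of which CON, LPS and ProNa label 3 each. Lipopolysaccharide (LPS), a part of the bacterial outer membrane, is the ligand of Toll-like receptor 4, while ProNa is given only as that abbreviation. One protocol text serves all samples: 24 h with or without 1 mM ProNa and then 100 ng/mL LPS for 12 h. From that text CON was taken to mean neither agent, LPS that agent alone and ProNa both in turn, so no group had ProNa without LPS. The labels name the cell line for each sample, but the extraction text mentions colonic segments. Among macrophage genes, 18 of 23 lay at 5 FPKM or more in every group (summed level 17081, 5290 and 7152 FPKM in CON, LPS and ProNa) and Mertk lay under 1 FPKM throughout. All 12 epithelial markers lay under 1 FPKM in every group, as did 10 of 11 fibroblast and smooth muscle markers and 11 of 12 lymphocyte markers. The summed level of the fibroblast and smooth muscle markers was 1.56, 14.2 and 17.8 FPKM, of which Acta2 made up 0.947, 13.7 and 17.6 FPKM. The exception among lymphocyte markers was Ighm, at 222, 1.26 and 2.32 FPKM. The values used were the authors' group means, so neither a spread between samples nor a test of a share can be given, the depth per sample is unknown, and each difference in share below is a description. Whether a group's samples were separate cultures is not stated, so the authors' p-values may measure technical spread only.

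One gene can give several mature RNAs, through alternative splicing, alternative start sites and alternative polyadenylation sites. Isoforms of a gene can differ in the protein they encode or in the untranslated ends that set stability and translation, and stimulated macrophages are known to change both splicing and 3′ end choice. In the text below, the share of an isoform is its FPKM as a percentage of the summed FPKM of all transcripts of its gene, and a move means a difference of at least 10 percentage points between 2 groups. The leading reference transcript of a gene is the Ensembl transcript with the highest mean FPKM over the 3 groups.

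The 2 sequences below are shown because they belong to genes in which assembled isoforms hold a large part of the signal and whose regulation is understood at sequence level. The first is from Xbp1, a transcription factor of the unfolded protein response, whose mRNA is cut by the endoplasmic reticulum enzyme IRE1 at a pair of stem-loops so that a short intron leaves and the reading frame shifts. It runs from position 785 to 870 of the leading Xbp1 reference transcript, inside the coding part, as read from the GENCODE vM21 transcripts. Capitals mark the 26 bases, positions 815 to 840, that lie between a pair of CNGCNGN cut motifs. The coding part has 267 codons as annotated and 371 once these bases are removed.
Xbp1 IRE1 intron: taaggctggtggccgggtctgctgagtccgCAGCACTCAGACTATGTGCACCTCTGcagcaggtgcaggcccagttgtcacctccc
The coding part of Xbp1 holds 2 such pairs on the sense strand at that spacing, and removal at the other would leave 73 codons. At least 1 pair occurs in 7.05% of 58797 protein-coding transcripts, so the letters alone do not single out Xbp1.
The second sequence is the promoter of Ifit1, an antiviral RNA-binding protein induced by interferon, nearly all of whose signal here lies in assembled isoforms. It is the 250 bases before the RefSeq start at chr19:34640639-34640888 of GRCm38.p6, plus strand. Capitals mark 2 matches on the minus strand to GAAANNGAAA, the core of the interferon-stimulated response element, at -104 to -95 and -85 to -76 from the start.
Ifit1 promoter: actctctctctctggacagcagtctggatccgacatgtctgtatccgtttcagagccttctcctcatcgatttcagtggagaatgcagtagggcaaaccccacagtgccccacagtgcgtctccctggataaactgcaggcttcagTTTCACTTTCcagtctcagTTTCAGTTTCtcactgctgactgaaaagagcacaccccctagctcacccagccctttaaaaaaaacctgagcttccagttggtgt
On either strand GAAANNGAAA was found in 2.98% of 32851 RefSeq promoter windows of this length. Of the 8 interferon-stimulated and antigen presentation genes named below, 5 matched a RefSeq start, and Ifit1 alone held the motif. A match is a run of letters and shows no binding.

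Most assembled isoforms were minor products of their gene. The median share was 4.47% in CON, 4.18% in LPS and 3.97% in ProNa, and 4508, 4616 and 4754 of the 8539 held under 5%. At the other end 395, 398 and 405 held at least 50% of their gene in the 3 groups, 295 of them in every group. Together the assembled isoforms held 18.2%, 16.2% and 15.9% of the FPKM of their 4037 genes. A single assembled isoform was present in 2009 of these genes, 2 in 995 genes and 3 or more in 1033, with the most, 24, in Ncor1, a corepressor of nuclear receptors. In 6065 isoforms at least 1 group reached 1 FPKM, and 203 were listed at 0 in all groups.

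As a rule the assembled isoforms were somewhat longer than the transcript they accompany and were annotated with the same domains. Their median length was 3534 bases (range 200 to 23753), 5861 were longer and 2663 shorter than the leading reference transcript, and 2219 were at least 2-fold longer against 426 at least 2-fold shorter. The Pfam protein domains listed for the isoform equalled those of the leading reference transcript in 70.5%, were fewer in 14.0% and more in 12.7%. The gene symbol of the SwissProt match differed from the symbol of the gene in 8.57% of the 8008 isoforms that had one. Genes with an assembled isoform had a median of 6 reference transcripts, against 5 in genes at the same FPKM limit without one. RefSeq lists more than 1 start for 25.7% of the 3266 such genes that could be matched, against 15.6% of 2676 genes without an assembled isoform. Genes with and without one had median levels of 26.9 and 23.4 FPKM, which move with these differences, and their part in them was not tested.

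Between LPS and CON, 510 assembled isoforms held at least 10 points more of their gene in LPS and 481 at least 10 points less, 11.6% of the 8539, in 842 genes. Over all 56813 transcripts of genes with more than 1 transcript at the same limit the figure was 8.42%, with 4.5% higher and 3.92% lower. Among isoforms with at least 1 FPKM in a group it was 16.2%, against 16.8% over all such transcripts, so at a matched level assembled isoforms moved about as often as any other. Between ProNa and LPS the counts were 119 higher and 148 lower, or 3.13% against a background of 2.29% (1.21% higher and 1.08% lower), and at 1 FPKM or more 4.37% against 4.52%. Between ProNa and CON 448 were higher and 476 lower, 10.8% against 8.2% of all transcripts (4.47% higher and 3.73% lower). The pairs of comparisons share groups, so these counts are not independent of one another.

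**Figure D1:**
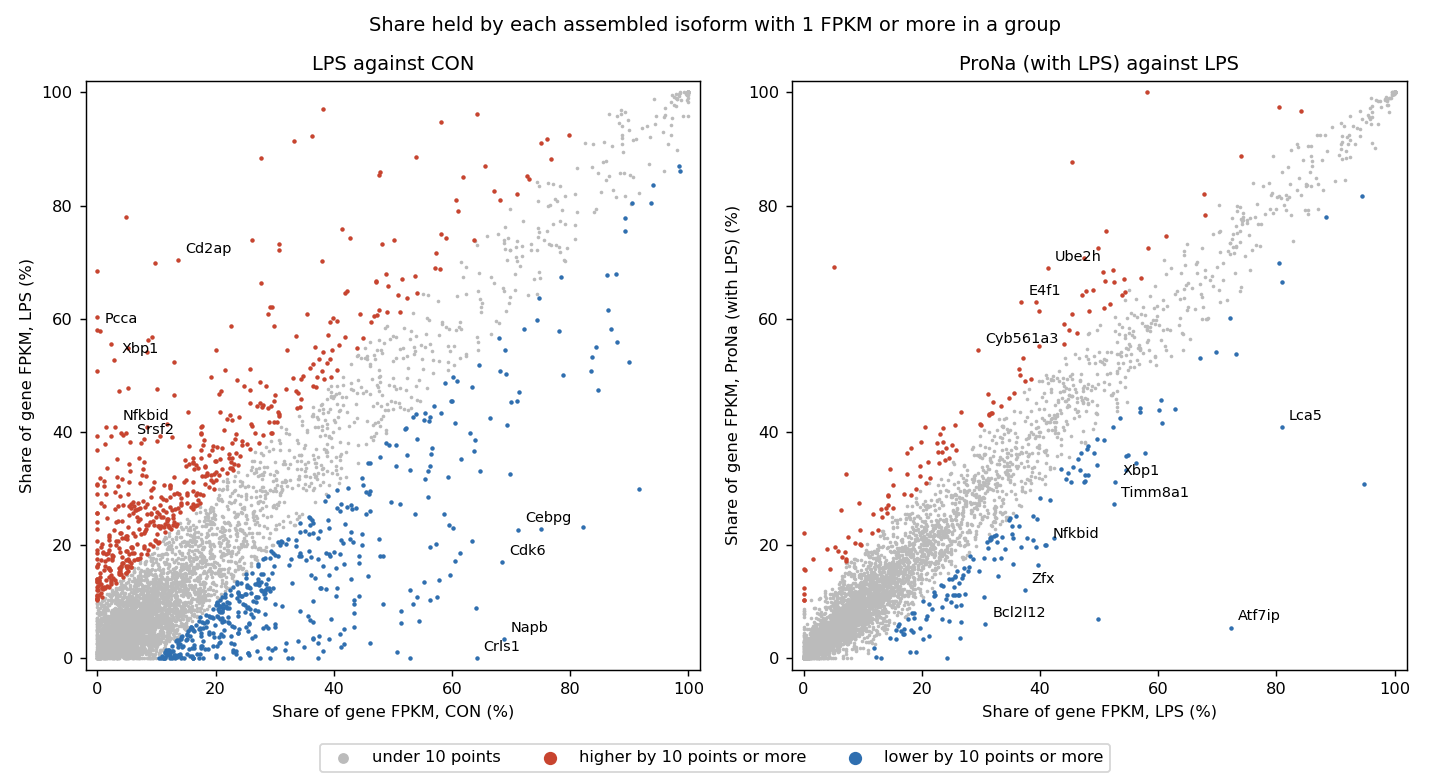
Share of the gene's summed FPKM (percent) held by each of the 6065 assembled isoforms with at least 1 FPKM in a group, in LPS against CON (left) and in ProNa, which includes LPS, against LPS (right). Each point is 1 isoform at the authors' group means, colours mark moves of 10 points or more, and the cloud is wider in the left plot, where 985 isoforms moved, than in the right, where 265 did.

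Some of these moves changed which transcript of a gene was the most abundant. An assembled isoform led its gene in 767 genes in CON, 769 in LPS and 738 in ProNa. The leading transcript differed between CON and LPS in 788 of the 4037 genes (19.5%). In 171 of these an Ensembl transcript led in CON and an assembled one in LPS, in 169 the reverse held, in 57 one assembled isoform took over from another, and in 391 both leaders were Ensembl transcripts. Between LPS and ProNa the leader differed in 405 genes (10.0%), with 71 passing to an assembled isoform and 102 passing from one. Genes with more than 1 transcript but no assembled isoform changed leader in 8.25% and 3.76% of 3055 cases, and they also had fewer transcripts to choose from. Where an assembled isoform was higher in LPS (488 genes), an Ensembl transcript of the gene was lower by 10 points or more in 321 and another assembled isoform in 98. Where one was lower (452 genes), an Ensembl transcript was higher by that much in 320.

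The isoforms with the largest gains in LPS came from genes of varied roles. In Pcca, the alpha subunit of the mitochondrial enzyme propionyl-CoA carboxylase, an assembled isoform of 1288 bases was listed at 0 in the unstimulated cells and stood at 22.8 FPKM under LPS and 17.8 with ProNa added, 58.1% and 58.7% of the gene. The leading Pcca reference transcript, of 2592 bases, stayed at 11.7, 11.8 and 10.0 FPKM. The assembled Pcca isoform is annotated with the biotin-carrying and BT domains but without the N-terminal biotin carboxylase and ATP-binding domains of that transcript. Its Pfam list is not a plain subset, as it holds a domain not listed for the leading reference transcript. The authors' deposited table gave a log2 fold change of 1.29 for Pcca in LPS against CON (adjusted p 7.4e-48). In Med24, a subunit of the Mediator complex that links transcription factors to RNA polymerase, an isoform of 2058 bases went from 0.127 to 34.0 and 31.5 FPKM over CON, LPS and ProNa. Its share was 0.516%, 57.8% and 60.7%, while the leading Med24 reference transcript went from 12.5 to 3.17 and 2.47 FPKM. Med24 as a gene rose by a log2 fold change of 1.23 in the authors' deposited table (adjusted p 1.8e-71). These 2 isoforms were thus high in both LPS-treated groups and near 0 in CON.

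The gains also included cytoskeletal genes. In Cd2ap, an adaptor between membrane receptors and actin, an isoform of 2225 bases held 13.6%, 70.4% and 63.0% of the gene, at 2.79, 14.2 and 14.98 FPKM. In Wasl, which encodes the actin nucleation factor N-WASP, an isoform of 2135 bases was listed at 0 FPKM in CON and held 60.4% in LPS and 45.6% in ProNa. Both are shorter than the leading Ensembl transcript, which measures 5364 bases in Cd2ap and 4352 in Wasl. The Cd2ap gene fell by 0.47 on the log2 scale in the authors' deposited table (adjusted p 3.6e-10), while Wasl did not pass the test there (log2 fold change 0.16, adjusted p 0.2). In Cmtm4, a MARVEL-domain membrane protein, the share was 4.79%, 78.0% and 78.6%, and in Phf7, a histone reader, it was 33.3%, 91.4% and 94.0%. The other gains were in Cfap43 (9.76%, 69.8% and 54.2%) and in the little described genes E330020D12Rik (27.6%, 88.4% and 77.9%) and Gm37240 (0%, 68.5% and 60.1%), with isoforms of 328 and 301 bases in the last pair. Cfap43 is named for a cilium protein, but the SwissProt match of this isoform is Itprip. With 0.5 FPKM added to each transcript the difference of that isoform between LPS and CON was 36.2 in place of 60.0 points.

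In several of these genes the FPKM and the gene table went apart. For Wee1, the kinase that holds Cdk1 inactive, an assembled isoform of 203 bases stood at 4.76, 19.3 and 33.1 FPKM and held 38.2%, 97.1% and 98.5% of the gene. All other Wee1 transcripts together went from 7.7 to 0.573 and 0.5 FPKM. In the authors' deposited table Wee1 fell by 3.32 on the log2 scale in LPS against CON (adjusted p 2.6e-61). Its summed FPKM went the other way, from 12.5 in CON to 19.8 in LPS and 33.6 in ProNa. FPKM is scaled by length, so the isoform of 203 bases carries fewer fragments at the same FPKM than the leading Wee1 reference transcript of 3419 bases. Which measure lies nearer the level of the gene was not tested. The summed FPKM of Cfap43 went from 35.6 in CON to 7.56 in LPS, where the authors' deposited table gave a rise of 0.36 on the log2 scale (adjusted p 0.0055). That of E330020D12Rik went from 6.44 to 19.6 FPKM, where the authors' deposited table gave a log2 fold change of -0.40 (adjusted p 0.0083). The summed FPKM was over 2-fold higher in LPS in Cdk6, Cmtm4, Phf7 and Gm37240, none of which passed the test (adjusted p 0.898, 0.413, 0.977 and 0.839). Of the 3162 genes with an assembled isoform that passed in LPS against CON in the authors' deposited table, 171 (5.41%) had a summed FPKM that differed in the other direction, 3 of them by at least 2-fold. These were Cfap43, E330020D12Rik and Vgll4, the last named after its values were seen.

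Losses of share in LPS were somewhat smaller, the largest being -65.3 points in Napb against 73.2 points for the gain in Cmtm4. Crls1, the cardiolipin synthase of mitochondria, had an isoform of 1566 bases at 14.7 FPKM in CON that was listed at 0 in LPS and stood at 1.07 FPKM in ProNa (64.1%, 0% and 5.55%). A second Crls1 transcript, an Ensembl one of 1267 bases, stood at 0.1, 12.8 and 9.04 FPKM, or 0.435%, 55.7% and 47.0% of the gene. Crls1 as a whole did not pass the test in the authors' deposited table (log2 fold change 0.08, adjusted p 0.58). Its summed level was 22.98, 23.04 and 19.2 FPKM in the 3 groups, carried by different transcripts. In Napb, the SNAP protein beta of vesicle fusion, the share was 68.8%, 3.47% and 5.59%. In Lpgat1, a lysophospholipid acyltransferase, an isoform of 6937 bases held 82.1%, 23.2% and 23.1%. In Nepro, a nucleolar protein, an isoform of 4433 bases held 52.8% in CON and had no FPKM listed in either other group.

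Several of the losses were in long isoforms of regulators. In Cdk6, the cyclin D-dependent kinase of the G1 phase, an isoform of 11536 bases held 68.4%, 17.0% and 16.5%, at 10.6, 5.68 and 7.79 FPKM. In Cebpg, a basic leucine zipper partner of C/EBP and ATF4, an isoform of 4599 bases stayed at 10.52, 11.4 and 8.31 FPKM while an Ensembl transcript of 914 bases went from 1.24 to 32.7 and 19.6 FPKM, so that the share of the assembled one was 71.2%, 22.7% and 25.4%. The Cebpg gene rose by 0.80 on the log2 scale in the authors' deposited table (adjusted p 6e-23). In Gtf2a1, a subunit of the general factor TFIIA, the share was 50.7%, 1.21% and 5.07%, and in Lonrf3, a RING finger protein, it was 64.1%, 8.92% and 13.1%. The last 2 were a second isoform of Cfap43 (74.98%, 22.9% and 34.5%) and one of Gm37240 (91.6%, 29.9% and 37.7%). This Cfap43 isoform has 317 bases and no SwissProt match, and that of Gm37240, of 3125 bases, is matched to Arfip1. Over CON, LPS and ProNa they stood at 26.7, 1.73 and 1.87 FPKM (Cfap43) and 6.47, 5.48 and 4.57 FPKM (Gm37240). The isoforms of these genes that gained stood at 3.47, 5.28 and 2.93 FPKM (Cfap43) and 0, 12.55 and 7.28 FPKM (Gm37240). Gain and loss within a gene share a total, so they are not independent. Weighting each transcript by FPKM times length, which counts fragments in place of FPKM, reduced the difference between LPS and CON from -51.4 to -30.6 points in Cdk6, from -48.5 to -24.8 in Cebpg, from 73.2 to 39.8 in Cmtm4 and from 60.8 to 30.4 in E330020D12Rik. The same weighting gave 17.3 in place of 68.5 points for the Gm37240 isoform that gained and -13.4 in place of -61.7 for the one that lost. In the Cfap43 isoform that lost it gave -28.8 in place of -52.1 points, and in Lpgat1 -36.5 in place of -58.8. Among the gains it gave 44.2 in place of 58.1 points in Pcca and 45.9 in place of 57.3 in Med24. In Cd2ap it gave 43.7 in place of 56.8 points and in Wasl 43.5 in place of 60.4. With 0.5 FPKM added to each transcript the difference between LPS and CON was -40.6 in place of -52.8 points in Nepro and -52.8 in place of -65.3 in Napb.

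**Figure D2:**
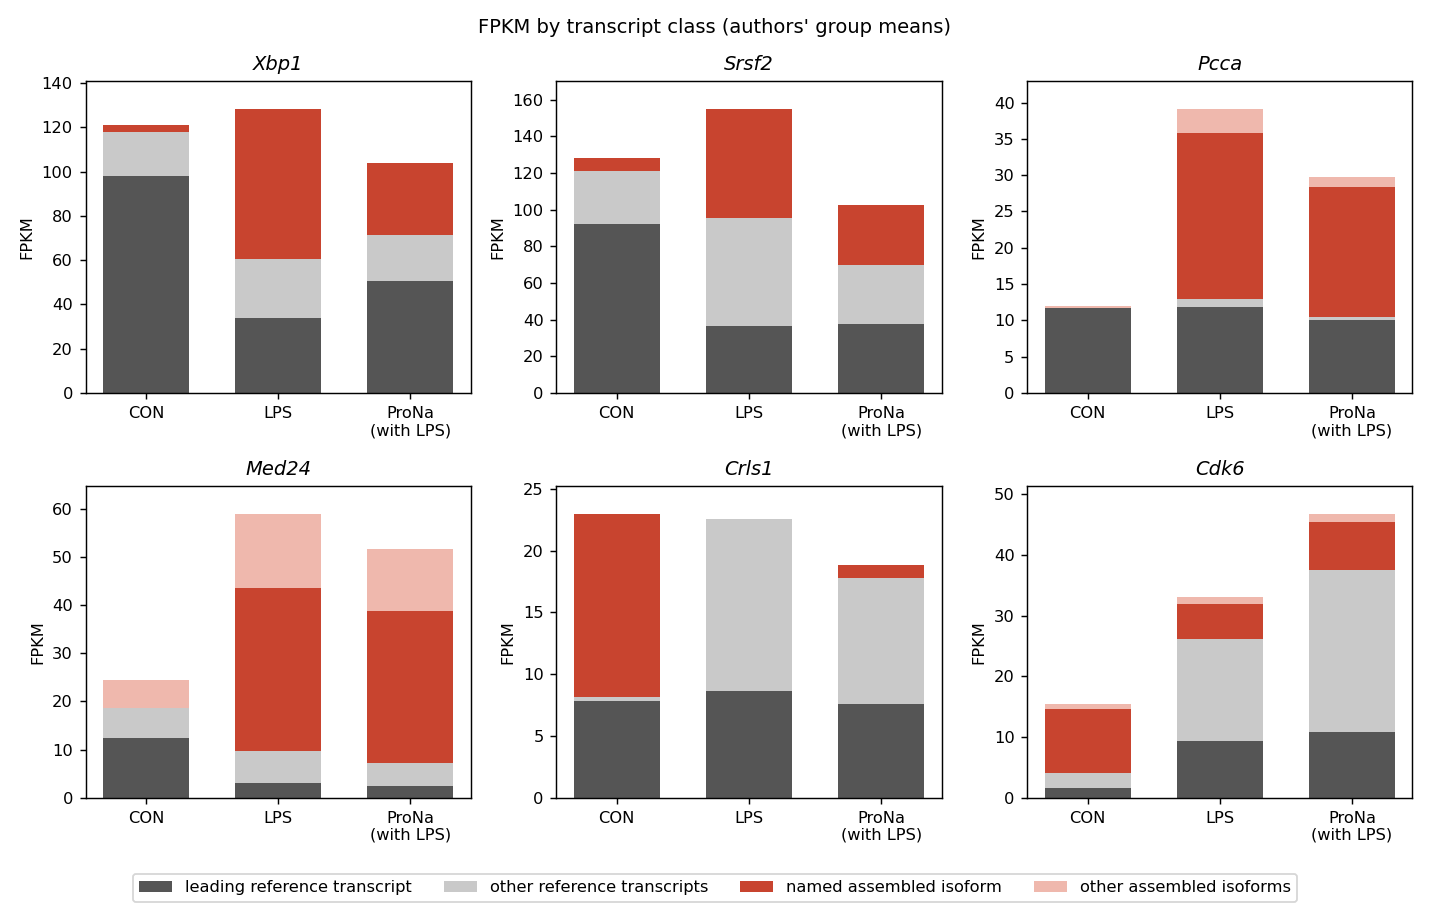
FPKM of 6 genes in CON, LPS and ProNa (with LPS), stacked by transcript class at the authors' group means, with transcripts under 0.5 FPKM in every group left out. In Xbp1 the most abundant assembled isoform (red) stood at 3.41, 67.5 and 32.4 FPKM, in Pcca and Med24 it was near 0 in CON, and in Crls1 it was present in CON and listed at 0 in LPS.

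Among 39 assembled isoforms of unfolded protein and integrated stress response genes, 4 moved up in LPS and none down (10.3%, against 8.42% over all transcripts). Of the 26 with at least 1 FPKM in a group the 4 are 15.4%, against 16.8% over all such transcripts, and both backgrounds serve for the lists that follow. The largest was in Xbp1: an isoform of 2150 bases stood at 3.41, 67.5 and 32.4 FPKM in CON, LPS and ProNa. Its best protein match is named XBP1(S), the product of the spliced message, and its share was 2.81%, 52.7% and 31.2%. The leading Xbp1 reference transcript, whose frame was given above, stood at 98.2, 34.0 and 50.5 FPKM. The 3 Xbp1 transcripts matched to XBP1(S) together held 15.4%, 71.6% and 49.5% of the gene, and the 2 of them with a Pfam domain 5.80%, 65.1% and 45.9%. ProNa thus lay between the other groups. The gene level moved far less: the authors' deposited table gave a log2 fold change of 0.32 in LPS against CON (adjusted p 2.8e-08) and -0.17 in ProNa against LPS (adjusted p 0.02). The sequence of the assembled isoform was not used here, so whether it lacks the 26 bases in capitals above was not tested.

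The other members of that list were smaller. In Gclm, the modifier subunit of glutamate-cysteine ligase that limits glutathione synthesis, an isoform of 1845 bases went from 0.907 to 55.3 and 47.7 FPKM (8.32%, 27.3% and 21.2%). The authors' deposited table gave Gclm itself a log2 fold change of 4.11 in LPS against CON, its adjusted p being written there as 0. In Cebpb, a driver of inflammatory and emergency gene programmes, an isoform nearly equal in length to the Ensembl transcript (1496 and 1504 bases) held 0%, 10.4% and 6.95%. In Atf6, a membrane-bound sensor of misfolded protein, an isoform of 495 bases held 0.306%, 11.3% and 16.4%. Weighted by length, the difference between LPS and CON was 0.837 points in Atf6 and 28.6 in place of 18.99 in Gclm. With 0.5 FPKM added it was 7.54 in place of 10.4 points in Cebpb and 9.76 in place of 10.99 in Atf6. Both then lay under the 10-point limit.

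Of 77 assembled isoforms of interferon-stimulated and antigen presentation genes, 2 moved up and 8 down in LPS (13.0%, against 8.42% over all transcripts), and 1 moved in ProNa against LPS (1.30%, against 2.29%). At 1 FPKM or more the LPS figure was 14.9% of 67, against 16.8%. Ifit1, whose promoter is shown above, was carried by 3 assembled isoforms of 2613 to 2629 bases, and no Ensembl transcript of it reached 0.5 FPKM in any group. The main one stood at 4.57, 60.7 and 134 FPKM and held 89.3%, 75.5% and 68.6%. Another was listed at 0 in CON and stood at 13.1 and 29.4 FPKM, 16.3% and 15.1% of the gene. With 0.5 FPKM added to each transcript the difference between LPS and CON was 3.09 in place of -13.8 points for the main one and 9.53 in place of 16.3 for the other. The gene rose in both steps: the authors' deposited table gave log2 fold changes of 4.25 for LPS against CON (adjusted p 3.7e-222) and 1.41 for ProNa against LPS (adjusted p 6.6e-58). Ifit1 and Ifi204 have close paralogs, and their values are uncertain for that reason.

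Trim25, the ubiquitin ligase that activates the RNA sensor RIG-I, was also carried mainly by an assembled isoform. It measures 5587 bases, is annotated with the RING and SPRY domains and stood at 68.2, 130 and 153 FPKM. The leading Trim25 reference transcript, of 1433 bases and without the SPRY domain, stood at 0.973, 21.1 and 20.9 FPKM, so the assembled one held 98.6%, 86.0% and 88.0%. Weighted by length its difference between LPS and CON was -3.63 in place of -12.6 points, under the 10-point limit. Trim21, an intracellular antibody receptor, had a pair of assembled isoforms that moved in opposite directions: 43.2%, 20.5% and 40.8% for one and 12.6%, 39.2% and 32.1% for the other. With 0.5 FPKM added the loss was -14.8 in place of -22.7 points. In Ifi204, a DNA sensor, an isoform of 4481 bases held 55.2%, 13.6% and 7.18% while the rest of the gene went from 4.1 to 45.8 and 135 FPKM. The remaining losses were in Oas2 (36.1%, 17.9% and 18.4%), which makes the activator of RNase L, Herc6 (21.5%, 6.61% and 7.57%), an ISG15 ligase, Psmb9 (26.9%, 10.8% and 20.2%), an immunoproteasome subunit, and Parp9 (47.8%, 35.6% and 41.6%). As genes, Herc6 rose by a log2 fold change of 1.47 and Trim21 by 1.20 in LPS against CON in the authors' deposited table (adjusted p 7.1e-44 and 1.7e-19). In the same table Psmb9 fell by 0.90 on the log2 scale (adjusted p 5.8e-09), while Oas2 did not pass (log2 fold change -0.06, adjusted p 0.568).

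In the NF-kB and Toll-like receptor list, 3 of 41 assembled isoforms moved in LPS (7.32%, against 8.42% over all transcripts). These 3 were 10% of the 30 at 1 FPKM or more, against 16.8%. Nfkbid, a nuclear IkB protein that modulates NF-kB target genes, had an isoform of 2020 bases at 0.713, 5.87 and 3.77 FPKM, or 3.03%, 40.9% and 20.02%. The leading Nfkbid reference transcript, of 2014 bases, stood at 18.1, 4.74 and 11.6 FPKM. The Nfkbid gene fell in LPS against CON by 0.45 and rose in ProNa against LPS by a log2 fold change of 0.53 in the authors' deposited table (adjusted p 1.9e-05 and 4.2e-06). In Tlr1, the partner of Toll-like receptor 2, the share was 27.2%, 14.0% and 26.6%, and in Traf3, the adaptor that leads to interferon induction, an isoform of 7059 bases held 31.3%, 9.20% and 9.59%. Of 22 isoforms of cytokine and chemokine genes 2 moved (9.09%, against the same 8.42%). These 2 were 10.5% of the 19 at 1 FPKM or more, against 16.8%. They belong to Il15, a cytokine that sustains natural killer cells (58.6%, 25.5% and 30.8%), and to Il18, an inflammasome substrate (57.2%, 71.6% and 63.3%). The Il15 difference between LPS and CON was -33.1 points and became -15.7 with 0.5 FPKM added to each transcript, in a gene whose level was 6.37, 7.51 and 12.0 FPKM.

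Cholesterol and lipid genes had the highest fraction of moves among the macrophage lists with over 10 isoforms, 6 of 25 (24%, against 8.42% over all transcripts), and 5 of the 6 were losses. At 1 FPKM or more the figure was 28.6% of 21, against 16.8%. All of these genes fell in LPS against CON in the authors' deposited table, by 0.95 to 4.97 on the log2 scale. Srebf1, the transcription factor SREBP-1, had an isoform at 20.01, 0.3 and 1.04 FPKM (25.5%, 1.04% and 3.63%). Hsd17b7, an enzyme of sterol synthesis, had one at 17.2%, 0% and 4.07%. Mvk, mevalonate kinase, had one at 22.2%, 9.78% and 6.76%, and Scd1, the stearoyl-CoA desaturase, one at 24.7%, 9.55% and 20.2%. Lpl, lipoprotein lipase, stood at 216, 12.1 and 37.3 FPKM in an isoform that held 52.2%, 40.7% and 44.1%. The gain was in Mvd, the mevalonate decarboxylase, whose isoform of 4138 bases stayed at 3.51, 3.75 and 4.06 FPKM while the rest of the gene went from 120 to 12.8 and 7.05 FPKM (2.83%, 22.7% and 36.6%). Weighted by length the difference between LPS and CON was -4.88 in place of -15.2 points in Scd1, under the 10-point limit, and 33.4 in place of 19.9 in Mvd.

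Lysosome and autophagy genes gave few moves, and cell cycle genes held few isoforms. Of 58 isoforms of lysosome and autophagy genes, 2 moved down in LPS (3.45%, against 8.42% over all transcripts): in Npc1, the lysosomal cholesterol exporter, from 57.0% to 44.6% and 41.5%, and in Atg7, the activating enzyme of autophagy, from 22.1% to 6.51% and 4.11%. These 2 were 4.44% of the 45 at 1 FPKM or more, against 16.8%. An isoform of Mitf, a regulator of lysosome genes, has 398 bases and held 18.5% in LPS and 4.70% in ProNa. That difference of -13.8 points was -1.43 weighted by length and -5.31 with 0.5 FPKM added, so it lay under the limit with either, while the Atg7 difference between LPS and CON was -25.1 in place of -15.6 points weighted by length. Only 9 isoforms of cell cycle genes were followed, and 2 moved down in LPS (22.2%, against 8.42% over all transcripts). At 1 FPKM or more these were 25% of 8, against 16.8%. They were the Cdk6 isoform above and one of Cdk1, the mitotic kinase, at 40.5%, 29.7% and 27.1%. The Cdk1 difference between LPS and CON was -17.9 in place of -10.9 points with 0.5 FPKM added. Cdk1 itself fell by 3.68 on the log2 scale in LPS against CON in the authors' deposited table (adjusted p 2.2e-161).

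Genes that mark macrophages gave 3 moves up and none down in LPS among 38 isoforms (7.89%, against 8.42% over all transcripts). These 3 were 9.38% of the 32 at 1 FPKM or more, against 16.8%. They were named after their values were seen. In Ptprc, the leukocyte phosphatase CD45, an isoform of 5433 bases held 9.36%, 30.1% and 24.7% of the gene. In Trem2, a lipid receptor of macrophages, an isoform of 1066 bases stood at 37.8, 17.7 and 20.01 FPKM and held 5.74%, 26.5% and 21.8%, while the summed Trem2 level went from 659 to 66.9 and 91.7 FPKM. In Itgb2, the beta 2 integrin subunit, an isoform of 2769 bases held 16.9%, 27.1% and 15.9%, and its difference of -11.2 points between ProNa and LPS was the single move of the list in that comparison.

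**Figure D3:**
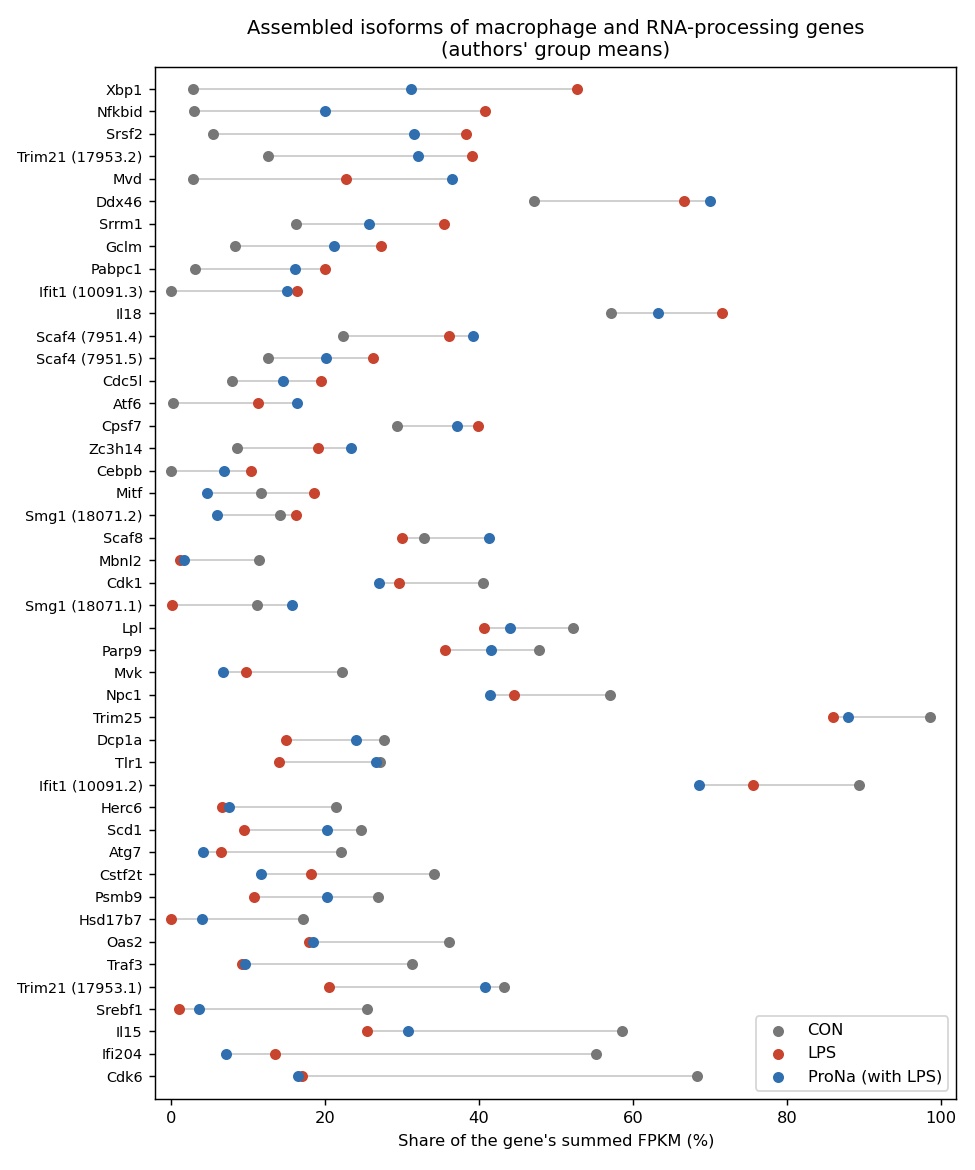
Share of the gene's summed FPKM (percent, horizontal axis) in CON, LPS and ProNa (with LPS) for the 45 assembled isoforms of macrophage and RNA-processing list genes that moved by 10 points or more between LPS and CON or between ProNa and LPS, ordered by the difference between LPS and CON. Points are the authors' group means, and 18 isoforms were higher and 24 lower by 10 points in LPS than in CON, from Xbp1 at the top to Cdk6 at the bottom.

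The genes that make and degrade isoforms were looked at in the same way. Of 60 assembled isoforms of SR proteins and related splicing activators, 2 moved up in LPS (3.33%, against 8.42% over all transcripts). These 2 were 5% of the 40 at 1 FPKM or more, against 16.8%. One was in Srsf2, an SR protein known to control its own message through splicing in its 3′ end: an isoform of 1370 bases stood at 6.99, 59.3 and 32.3 FPKM (5.45%, 38.3% and 31.6%). The leading Srsf2 reference transcript, of 1899 bases, stood at 92.1, 36.3 and 37.7 FPKM. Another Srsf2 transcript, of 433 bases, which GENCODE vM21 lists as a processed transcript without a coding frame, went from 8.31 to 40.6 and 19.0 FPKM. At gene level Srsf2 did not pass the test in LPS against CON (log2 fold change -0.02, adjusted p 0.83) and fell by 0.29 in ProNa against LPS (adjusted p 0.00011) in the authors' deposited table. The other was in Srrm1, a splicing coactivator, at 16.2%, 35.4% and 25.8%. Moves among 41 isoforms of core spliceosome genes were in Ddx46 (47.1%, 66.6% and 70.0%) and Cdc5l (7.93%, 19.5% and 14.5%). The single move among 70 isoforms of hnRNPs and other regulators was in Mbnl2 (11.4%, 1.20% and 1.75%). With 0.5 FPKM added the Mbnl2 difference between LPS and CON was -9.20 in place of -10.2 points.

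Cleavage and polyadenylation factors had 6 of 39 isoforms moving in LPS (15.4%, against 8.42% over all transcripts), 5 of them up. At 1 FPKM or more these were 6 of 24, against 16.8% over all such transcripts. Pabpc1, the cytoplasmic poly(A)-binding protein, had an isoform at 25.7, 108 and 72.4 FPKM (3.20%, 20.04% and 16.1%) beside a leading reference transcript at 698, 382 and 342 FPKM. Scaf4, which restrains early polyadenylation, had 2 isoforms that gained, at 22.3%, 36.1% and 39.2% and at 12.6%, 26.2% and 20.1%. Cpsf7, a subunit of the cleavage factor CFIm, stood at 29.3%, 39.9% and 37.2%, and Zc3h14, a nuclear poly(A)-binding protein, at 8.64%, 19.1% and 23.5%. Their differences between LPS and CON, 10.6 and 10.5 points, were 8.26 and 8.12 with 0.5 FPKM added. Weighted by length they were 9.76 and 9.96 points, so both lay under the limit with either. Cstf2t, a paralog of the cleavage stimulation factor CstF-64, stood at 34.2%, 18.1% and 11.7%. In Scaf8, the paralog of Scaf4, the share was 30.05% in LPS and 41.3% in ProNa, a difference of 11.2 points that was 6.41 with 0.5 FPKM added. Of 24 isoforms of nonsense-mediated decay factors, 2 moved down in LPS (8.33%, against 8.42%), in the decapping cofactor Dcp1a (27.7%, 14.98% and 24.1%) and in the kinase Smg1 (11.2%, 0.163% and 15.7%). A further isoform of Smg1 stood at 14.1%, 16.2% and 6.01%, and the 2 are close in length at 15601 and 15544 bases. The decay factor isoforms that moved in LPS were 14.3% of the 14 at 1 FPKM or more, against 16.8%. With 0.5 FPKM added the Dcp1a difference between LPS and CON was -5.61 in place of -12.7 points. That of the Smg1 isoform that moved down was -8.85 in place of -11.0 points.

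The genes of this machinery changed in level as well, and those of the splicing lists fell more often than they rose in LPS. In the authors' deposited table, 55.4% of 17795 genes with an adjusted p passed 0.05 in LPS against CON, 28.1% rising and 27.2% falling. Among the 7542 of them at 5 FPKM or more in every group, 75.7% passed, with 3320 rising and 2392 falling. Of 21 SR and related genes 5 rose and 11 fell, of 42 hnRNPs and other regulators 5 rose and 22 fell, and of 44 core spliceosome genes 15 rose and 25 fell in the authors' deposited table. The splicing regulator Mbnl1 fell by 2.54 on the log2 scale (adjusted p 4.9e-173), the splicing repressor Hnrnpa1 by 1.23 (adjusted p 4.8e-110) and the splicing activator Srsf1 by 0.97 (adjusted p 7.1e-65), while Sf3b4 of the U2 particle rose by a log2 fold change of 1.51 (adjusted p 3.6e-106), all in the authors' deposited table. Of 27 cleavage and polyadenylation factors 8 rose and 8 fell there, and of 20 decay factors 6 rose and 4 fell. Cpsf1, the large subunit of the cleavage complex, fell by 1.54 (adjusted p 1.7e-99), Cstf2 by 1.43 (adjusted p 7.6e-52) and Nudt21, a CFIm subunit whose loss is known to favour early polyadenylation sites, by 1.07 (adjusted p 7.6e-29) on the log2 scale in the authors' deposited table.

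In ProNa against LPS, where 30.6% of 12732 genes passed in the authors' deposited table (16.5% up, 14.1% down), 13 of 41 hnRNPs and regulators rose and 4 fell, 11 of 44 core genes rose and 3 fell, and SR genes split 6 to 6. The values were small: Srsf3 rose by a log2 fold change of 0.40 (adjusted p 2.6e-09) and Sf3b1 by 0.36 (adjusted p 6.4e-08) in the authors' deposited table. The exonuclease Xrn1 rose by a log2 fold change of 0.92 (adjusted p 5.4e-18) in the authors' deposited table. Of the polyadenylation factors 3 rose and 4 fell, and of the decay factors 3 rose and 2 fell. Over genes at 5 FPKM or more in every group, 37.4% of 7516 passed in this comparison.

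Isoforms that gained in LPS were shorter than those that lost. The 510 that gained had a median length of 2664 bases and the 481 that lost one of 4610 bases. Set against the leading reference transcript of the gene, those that gained had a median log2 length ratio of -0.03, 15.1% were at least 2-fold shorter and 10.4% at least 2-fold longer. Those that lost had a median ratio of 0.37, 4.78% were at least 2-fold shorter and 35.3% at least 2-fold longer. Fewer Pfam domains than the leading reference transcript were listed for 19.2% of the gains and 11.6% of the losses. Ensembl transcripts followed the same order, with a median of 1834.5 bases among those higher and 3149 among those lower in LPS, so the pattern was not restricted to assembled isoforms. With FPKM times length in place of FPKM the medians were 3001.5 and 5218 bases, and among isoforms of at least 500 bases 2795 and 4764.5 bases.

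Taken over whole genes, the mean transcript length weighted by FPKM was at least 1.25-fold shorter in LPS than in CON in 8.82% of the 4037 genes with an assembled isoform and at least 1.25-fold longer in 0.966%. In 3055 genes with several transcripts but no assembled isoform the figures were 5.50% and 0.262%. Between ProNa and LPS the isoforms that gained and lost had nearly equal medians, 2821 and 2787.5 bases, and 0.644% of genes were shorter against 0.372% longer. RNA integrity and fragment size per sample are not known here, and their part in the length pattern was not tested.

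**Figure D4:**
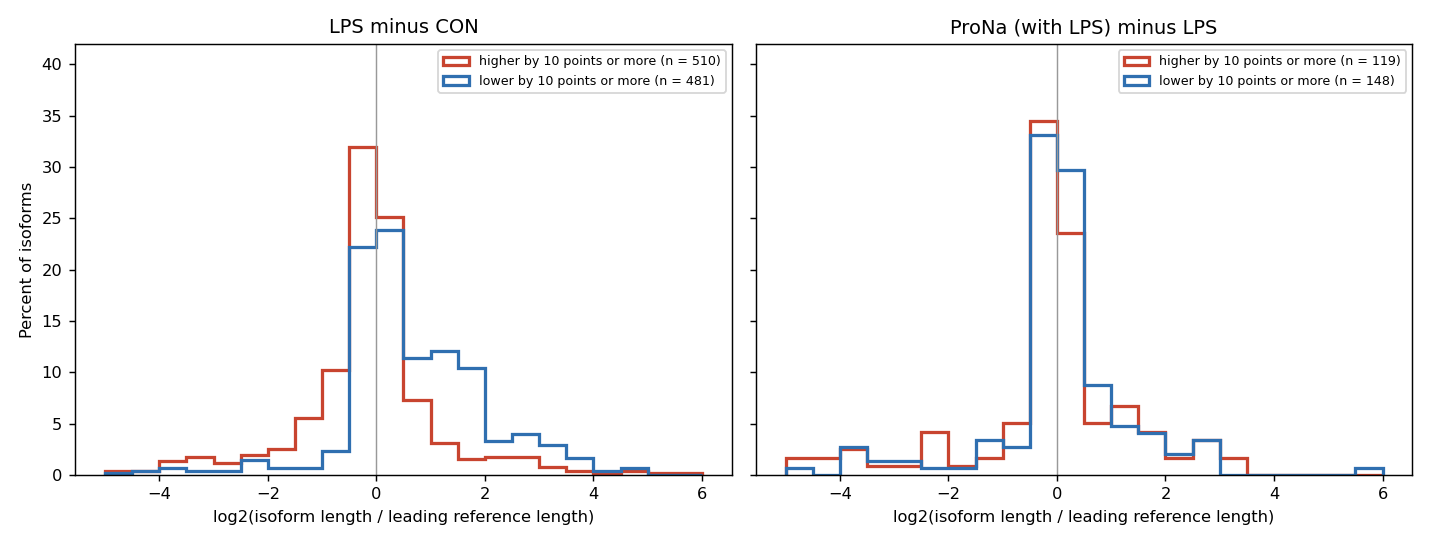
Length of assembled isoforms relative to the leading reference transcript of the same gene (log2 ratio, horizontal axis) as a percentage of the isoforms that were higher (red) or lower (blue) by 10 points or more, for LPS minus CON (left, 510 and 481 isoforms) and ProNa minus LPS (right, 119 and 148). In the left plot the isoforms that lost share extend further to the right, with a median of 0.37 against -0.03, and in the right plot the outlines lie close together.

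ProNa against LPS gave fewer moves, led by Atf7ip, Zfp146 and Myh15. In Atf7ip, a partner of the H3K9 methyltransferase SETDB1, an isoform of 8073 bases stood at 10.4, 3.64 and 0.587 FPKM and held 30.8% in CON, 72.2% in LPS and 5.47% in ProNa. An Ensembl transcript of Atf7ip of only 177 bases stood at 19.0, 0 and 6.14 FPKM, and FPKM of so short a transcript rests on few fragments. With 0.5 FPKM added to each transcript the difference between ProNa and LPS was -26.0 in place of -66.8 points. In Zfp146, a zinc finger protein, 2 isoforms of 3099 and 3089 bases traded places: 69.9%, 45.4% and 87.8% for one and 19.2%, 49.8% and 6.92% for the other. In Myh15, a myosin heavy chain, isoforms of 236 and 220 bases did the same, at 41.8%, 5.18% and 69.2% and at 58.2%, 94.8% and 30.8%. Both Myh15 fragments have the same protein match and fewer Pfam domains than the leading reference transcript.

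The remaining isoforms that were lower in ProNa than in LPS, with shares in CON, LPS and ProNa, were in Lca5, a ciliary protein (68.0%, 80.9% and 40.9%), Timm8a1, a mitochondrial import chaperone (13.0%, 52.4% and 27.2%), Zfx, an X-linked transcription factor (28.5%, 37.4% and 12.0%), Bcl2l12 (12.3%, 30.7% and 6.07%) and the zinc finger protein Zfp217 (3.54%, 24.2% and 0%). Those that were higher were in Ube2h, a ubiquitin-conjugating enzyme (69.3%, 41.3% and 69.0%), Gm12666 (86.9%, 58.1% and 100%), E4f1, a transcription factor and ubiquitin ligase (19.4%, 36.8% and 62.9%), Zfp426 (19.5%, 7.23% and 32.7%), Cyb561a3, a lysosomal ferrireductase (26.9%, 29.5% and 54.5%), and Cped1 (25.8%, 51.2% and 75.4%). The Cped1 isoform has 232 bases and its SwissProt match is Pol, not Cped1, and that of Gm12666 is matched to Larp7. In the authors' deposited table the adjusted p of these 11 genes in ProNa against LPS ran from 0.207 to 0.957. With 0.5 FPKM added, the difference between ProNa and LPS was -25.0 in place of -40.0 points in Lca5, -16.3 in place of -25.3 in Zfx, -15.9 in place of -24.6 in Bcl2l12 and -15.4 in place of -24.2 in Zfp217. Among the gains it was 12.4 in place of 25.4 points in Zfp426 and 15.2 in place of 24.95 in Cyb561a3, and weighted by length the E4f1 difference was 10.53 in place of 26.1 points. Of the genes described earlier, Xbp1 was lower in ProNa than in LPS by 21.5 points and Nfkbid by 20.8, values that share the LPS group with the gains given above.

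The most abundant assembled isoforms were of 2 kinds. The first lay in genes of abundant proteins and in ribosomal protein pseudogenes. In Cst3, the secreted protease inhibitor cystatin C, an isoform of 790 bases, beside a leading reference transcript of 860 bases, stood at 5041, 515 and 1020 FPKM and held 95.9%, 86.1% and 87.0%. Cst3 fell by 2.85 on the log2 scale in LPS against CON (adjusted p written as 0) and rose by a log2 fold change of 1.10 in ProNa against LPS (adjusted p 9.3e-51) in the authors' deposited table. In bulk RNA, fewer cells that make a message and less of it per cell cannot be told apart. In P4hb, the protein disulfide isomerase of the endoplasmic reticulum, an isoform of 2620 bases, beside a leading reference transcript of 2861 bases, stood at 277, 1095 and 909 FPKM, with a steady share of 85.5%, 87.7% and 88.0%. Ribosomal protein genes and pseudogenes followed, namely Rps15a, Rpsa, Rpl14-ps1 and Rpl28-ps1, between 593 FPKM (Rpl28-ps1 in ProNa) and 1986 FPKM (Rpl14-ps1 in CON). Pseudogenes and their parent genes share sequence, so how reads were divided between them is uncertain.

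The second kind were short fragments that held nearly all the summed FPKM of a gene. Isoforms of 201, 202 and 232 bases held 100% of Il31ra, Cacna2d1 and Tmtc2 in each group after rounding, and isoforms of 221, 426 and 711 bases held 97.2% or more of Rbms2, Gphn and Cmss1. The SwissProt matches of the last 3 are Nedd4, ART2 and Tes, none of which is the gene they are filed under. Of the 295 isoforms that held at least 50% in every group, 29 were under 300 bases (9.83%), against 0.75% of all 8539. FPKM is scaled by length, so a share of FPKM favours short transcripts. Shares by FPKM times length are not given for these 29. Their summed level was 3041, 5377 and 5817 FPKM, and 18 of the 29 were higher and 11 lower in LPS than in CON. Of their 29 genes, 12 rose and 6 fell in LPS against CON in the authors' deposited table. There 55.4% of all genes and 75.7% of genes at the same FPKM limit passed. In 3 of the genes with such a short isoform, Ddx19b, Gm10499 and Zfp9, the call went against the FPKM of the isoform. The protein matches of these 29 were few: 14 distinct ones, a single match shared by up to 5 genes, and 9 with none. How reads were divided between such genes is uncertain.

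At gene level the carriers of assembled isoforms changed somewhat more often than other genes. Of 4037 such genes 1877 rose and 1285 fell in LPS against CON in the authors' deposited table, or 78.3%, against 55.4% of all genes and 72.8% of genes at the same FPKM limit without one. In ProNa against LPS 881 rose and 792 fell of 4031 (41.5% against 32.6%), and in ProNa against CON 1941 rose and 1339 fell (81.2%, against 54.4% of all 18540 genes and 76.2% of genes at the same FPKM limit without one) in the authors' deposited table. Genes with an isoform that moved by 10 points in LPS passed in 75.7% of 842 cases, near the 78.3% of all carriers. The log2 fold changes of that table lie above the log2 ratios of FPKM by a median of 0.23, 0.13 and 0.35 in the 3 comparisons. Relative to that shift the split of carriers was 1794 to 1368 in LPS against CON, 881 to 792 in ProNa against LPS and 1622 to 1658 in ProNa against CON.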

How the data were processed

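The submitters' processing notes list HISAT2, StringTie, DESeq2 and the build GRCm39, without versions. The deposited matrix gives FPKM per transcript, per the file headers, and its 3 group columns were taken as the authors' means. Another 9 columns, for single libraries, have names absent from the labels and were used in no step, so a planned limma fit was replaced by differences of shares without a test. The authors' deposited table gives per gene a log2 fold change (a ratio on the log2 scale) with its DESeq2 p-value, raw and adjusted, per the file headers. An adjusted p of exactly 1 was treated as none.

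Shares were computed in Python 3.11.15 with pandas 2.3.3, and their arithmetic was checked on simulated data without noise. That check says nothing about spread between samples or how reads were assigned to isoforms. Assembled isoforms are given without coordinates: the available annotation is of GRCm38 and the files are of GRCm39. No source says whether counting used the strand, so overlapping and antisense genes cannot be told apart. Lists of splicing, 3′ end, decay, macrophage and marker genes, 16 in all, and the isoforms themselves were chosen with earlier results of these data known. Named isoforms are the 10 largest gains and losses for LPS minus CON, the 8 for ProNa minus LPS (at 1 FPKM or more in a group), the 12 most abundant, members of the macrophage pathway and RNA-processing lists that moved by 10 points, the 4 factors per machinery list with the smallest adjusted p in each of 2 comparisons, and 3 on each side of the 5 FPKM limit. Other transcripts of the same genes, and isoforms of 3 macrophage marker genes, were named after their values were seen.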

Additional observations from a re-analysis of the deposited data

How the results depend on the processing

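No paired analysis was possible because the values per library carry names that no label gives, and for the same reason no replicate could be left out. Counts of isoforms that moved, given for LPS minus CON, ProNa minus LPS and ProNa minus CON, depended most on the threshold. They were 991, 267 and 924 as reported, 1688, 621 and 1568 with a gene limit of 1 FPKM, 586, 140 and 554 with 10 FPKM, 284, 32 and 263 at 20 points, and 3362, 1679 and 3250 for a 2-fold difference in share. For ProNa minus LPS alone the count was 437 with the limit on the mean of the groups and 139 with 0.5 FPKM added to each transcript. It stayed within 1.5 times in each comparison with isoforms of 1 FPKM or more, isoforms of a gene summed, no text filter, FPKM times length or a minimum of 500 bases, the last 2 chosen after seeing the data. Among named isoforms, 1 reversed, Ifit1 from -13.8 to 3.09 points with 0.5 FPKM added. With that setting a further 12 of their LPS minus CON moves shifted by at least 10 points and 63 did not. For ProNa minus LPS 3 shifted and 27 did not. With FPKM times length 20 shifted and 56 did not for LPS minus CON, and 3 and 27 for ProNa minus LPS. With at least a 2-fold change required in the authors' deposited table, carriers that rose and fell numbered 675 and 347 in LPS against CON, 75 and 3 in ProNa against LPS, and 693 and 321 in ProNa against CON. Machinery genes then numbered 1 and 11, 0 and 0, and 6 and 8, against 39 and 70, 36 and 19, and 50 and 68 without it, and centring on the FPKM ratio gave 28 and 90 for the last. The fold threshold is stricter by construction, and for the other settings the cause was not tested. The depth is unknown, so no limit of detection can be given.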
